A study of Mus musculus with 2 samples.

Results

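The cells described here are mature, migratory dendritic cells of mouse B16-F10 melanoma, picked from single-cell RNA-seq of sorted Cd45+ cells by the transcripts they carry. Cells were chosen by a gate on counts of unique molecular identifiers (UMIs, each standing for 1 captured RNA molecule). A cell was a member if it had at least 1 UMI of Ccr7, at least 4 UMIs of Ccr7, Fscn1 and Ccl22 together, at most 1 UMI of Cd3d, Cd3e and Cd3g together, at most 5 UMIs of C1qa, C1qb and C1qc together, and under 10% of its UMIs from mitochondrial genes. The gate found 313 members among 6284 kept cells of the Irg1+/+ library and 297 among 5794 of the library labelled Irg1-/-, 610 of 12078 in all.

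B16-F10 is a melanoma line of C57BL/6 mice, and Irg1 (listed as Acod1) encodes the enzyme that makes itaconate in activated myeloid cells. Mice of both groups were females, 8 to 10 weeks old as the methods state for mice given tumor cells, and received 200000 tumor cells under the skin. The Irg1-/- mice carry the deletion in every cell and had been backcrossed onto C57BL/6J, and the other group was Irg1+/+. On day 10, pieces of 100 mm3 from the tumors of 3 mice per genotype were pooled, and Cd45+ leukocytes were captured on the BD Rhapsody microwell system as 1 library per genotype. Each difference between the libraries is therefore a difference between 2 pools of animals. It has no replicate and carries no test, and genotype, pool, sorting and library cannot be told apart.

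The labels give 6000 sorted cells per sample, beside 6408 barcodes in the Irg1+/+ library and 5896 in the library labelled Irg1-/-, with 43617546 and 36432067 UMIs. The median member of the Irg1+/+ library had 4818 UMIs (502 to 15828) and 1989 genes, and that of the library labelled Irg1-/- had 5316 UMIs (502 to 22633) and 2130 genes. Levels are given as CPM, UMIs per 1000000 UMIs summed over the cells of a class with mitochondrial genes left out, and the members held 1566836 and 1665234 such UMIs. Intervals are 95% and exact (Poisson for a level, binomial for a share or a ratio of 2 counts), and cover counting error only, not the spread between mice. Of 36 barcodes found in both libraries, 1 belonged to a member, in the library labelled Irg1-/-.

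Dendritic cells take up antigen in tissue and, once activated, stop taking it up, raise the chemokine receptor Ccr7 and the actin-bundling protein Fscn1, and move through lymphatic vessels to lymph nodes, where they present antigen to T cells. Both conventional lineages, the cross-presenting cDC1 and the CD4 T cell-priming cDC2, can enter this state, which combines costimulatory molecules and IL-12 with checkpoint ligands and the chemokines Ccl17 and Ccl22. Those 2 chemokines bind Ccr4, a receptor found on regulatory and type 2 helper T cells.

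The targeted gene gave no check of the genotype in these cells. Acod1 had 27 UMIs over the members of the Irg1+/+ library (17.2 CPM, 11.4 to 25.1) and 59 in the library labelled Irg1-/- (35.4 CPM, 26.97 to 45.7), where 1 cell held 14 of them. Both levels were under those of a T cell gate (at least 3 UMIs of Cd3d, Cd3e and Cd3g together), at 55.3 and 41.1 CPM, although the interval of the second includes the T cell level, and they were not read as expression by dendritic cells. In all other kept cells Acod1 stood at 90.5 and 111 CPM. Counts per gene do not show which part of the transcript the UMIs came from, and a 3′ tag outside the deleted stretch says nothing of the deletion, so directions below are between libraries as labelled. By other assays the paper reports more Cxcl9 in Irg1-deficient macrophages, and less of the genes of Vegfa+ macrophages, which include Spp1 and Mmp12. Members of the library labelled Irg1-/- also had more Cxcl9 and less Spp1 and Mmp12 (below). The paper's assays were of macrophages, not dendritic cells. It picked the Vegfa+ genes from this same single-cell series, so the likeness is no check of the labels. An exchange of labels was not tested.

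Members made up similar parts of the libraries, 4.98% of kept Irg1+/+ cells (4.46 to 5.55) and 5.13% of those labelled Irg1-/- (4.57 to 5.73). For comparison, a cDC1 gate (at least 2 UMIs of Xcr1 and Clec9a) took 2.24% and 2.45%, and a cDC2 gate (at least 2 UMIs of Cd209a) 1.66% and 3.78% of the kept cells. Counted among the cells of these 3 gates, members were 56.1% (51.9 to 60.3; 313 of 558) and 45.1% (41.3 to 49.03; 297 of 658). The cDC2 gate held 104 and 219 cells and the cDC1 gate 141 and 142. The cDC2 gate rests on Cd209a alone. In it 4 monocyte markers, led by Plac8, summed to 3716 and 4244 CPM. The sums were 2958 and 4107 CPM in the cDC1 gate and 732 and 1349 CPM in members. The part of monocytes in the cDC2 gate was not tested.

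The limits on Cd3 and C1q set much of these numbers. Of 893 and 652 cells with a Ccr7 UMI and at least 4 UMIs of the 3 genes, the Cd3 limit left out 465 and 223 and the C1q limit a further 115 and 132. The cells left out were far deeper than members, with medians of 17498 and 16253 UMIs under the Cd3 limit and 12196 and 12303 under the C1q limit. Among them, 144 and 103 had at least 20 UMIs of the 3 genes and carried Tbc1d4 at 2018 and 1407 CPM, not far from the members' 2407 and 1788. Whether these were 2 cells in 1 well was not tested.

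The name of the population fitted best where the 3 gate genes were abundant. Their sum per member had a median of 33 UMIs in the Irg1+/+ library and 29 in the library labelled Irg1-/-, with highest values of 333 and 252. Cacnb3, a calcium channel subunit that is not part of the gate, was at 1474 and 1525 CPM in the 96 and 94 members with a sum of 20 to 49, at 853 and 626 CPM at 10 to 19, and at 237 and 223 CPM in the 61 and 70 members at 4 to 9. Socs2, an inhibitor of cytokine signaling, followed the same course with 506 and 581, 351 and 338, and 84.8 and 66.2 CPM. Some transcripts of other cells were higher at low sums and some were not. Ly6c2, a monocyte surface gene, was at 551 and 1335 CPM in members with sums of 4 to 9 and at 191 and 366 CPM at 20 to 49, and Naaa, a lysosomal amidase abundant in cDC1, was at 861 and 687 CPM in the first and at 126 and 102 CPM in the second. The macrophage gene C1qb was at 254 and 218 CPM and at 278 and 287 CPM, and the T cell gene Cd3e, both limited by the gate, at 33.9 and 16.6 CPM and at 35.0 and 27.7 CPM.

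At the threshold itself, the 18 and 25 members with a sum of 4 had 321 and 117 CPM of Tbc1d4, a Rab GTPase-activating protein, and 122 and 85.9 CPM of Cacnb3. The 47 and 57 cells just outside, with a sum of 3, had 110 and 58.6 CPM of Tbc1d4 and 114 and 66.0 CPM of Cacnb3, so Cacnb3 was close on both sides of the threshold and Tbc1d4 was higher inside it. The 3 gate genes were also present at 145, 277 and 244 CPM (Ccr7, Fscn1 and Ccl22) in the T cell gate of the Irg1+/+ library. B cells also express Ccr7, and B cell transcripts were found at low sums. Of members with sums of 4 to 9, 6 of 61 and 9 of 70 had at least 2 UMIs of the 4 B cell markers, against none of 204 and none of 185 with sums of at least 20. The members with at least 20 UMIs of the 3 genes, 204 (3.25% of kept cells) and 185 (3.19%), are called core members below, and the main values are given for them too. This limit was set after the values had been seen.

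**Figure D1:**
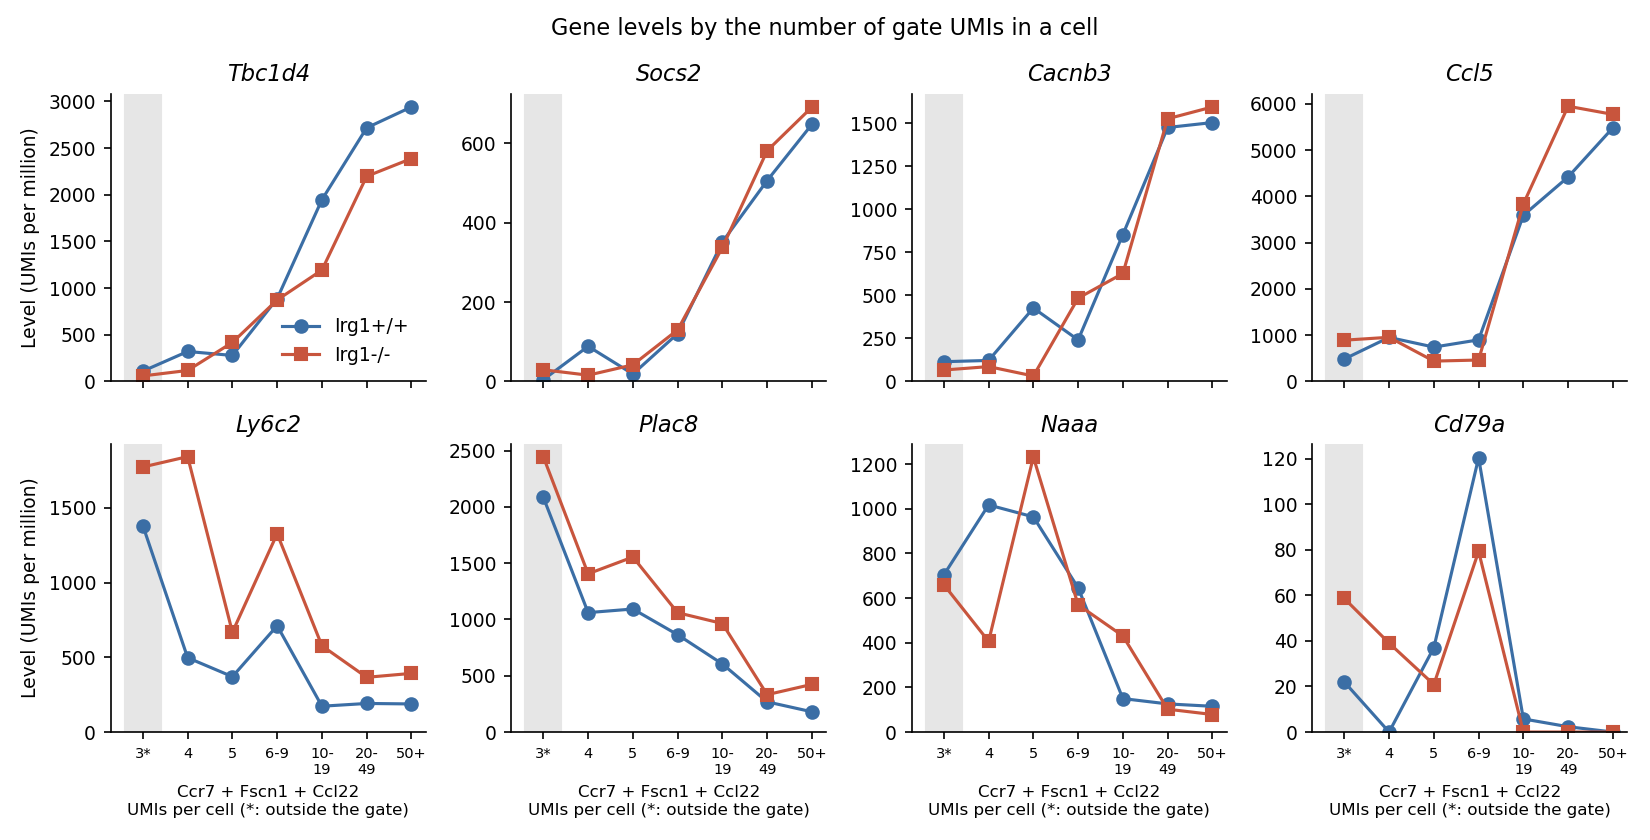
Level (CPM, vertical axes from 0) of 8 genes in cells grouped by their summed Ccr7, Fscn1 and Ccl22 UMIs (horizontal axis), for the Irg1+/+ library (circles) and the library labelled Irg1-/- (squares), with the group just outside the gate shaded. Tbc1d4, Socs2, Cacnb3 and Ccl5 were higher at large sums, while Ly6c2, Plac8 and Naaa were lower there and Cd79a, a B cell gene, was at or near 0 from a sum of 10 on.

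Against the 2 gates of other dendritic cells, members were high in genes of migration. This contrast shares its genes with the gate, so it is a description and has no test. Of 8556 genes with at least 50 UMIs over the 3 gates, 442 (5.17%) were at least 2-fold higher in members than in both cDC1 and cDC2 in both libraries, and 298 (3.48%) at least 2-fold lower. With TMM scaling factors these counts were 515 and 195. Of 20 genes of migration and the cytoskeleton, 15 were in the higher group and none in the lower. The 15 include Ccr7 and Fscn1, whose counts the gate used, so these 2 were high by the rule. The others, among them Cacnb3, Tbc1d4, Swap70 and Mreg, are not gate genes. Ranked by the smallest of the 4 differences (2 gates in 2 libraries), the first 10 genes included, beside the gate genes Ccr7 and Fscn1, the actin-severing Scin (239 and 156 CPM in members, at most 3.02 in either gate), Mreg, a gene of organelle transport (460 and 412, at most 14.4), Socs2 (491 and 485, at most 16.2), and the class II gene H2-Eb2, which is not in the class II list below (147 and 187, at most 6.15). Slco5a1, Plekhs1, Rgs12 and the unnamed transcript Gm13546 completed them. Tmem123, which takes part in dendritic cell exit from tissue, was at 4632 and 4047 CPM against 344 to 508 in the gates.

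Secreted factors set members apart in a narrow set of genes. Of 10 chemokines measured, 3 were at least 2-fold higher throughout: Ccl22 itself, Ccl5 and Cxcl16. Over all genes, 5.17% were higher and 3.48% lower by this measure. Ccl5, a chemokine that attracts T cells, was at 4288 and 4487 CPM in members against 289 to 399 CPM in the gates, though the T cell gate held 2622 CPM in the Irg1+/+ library. Cxcl16, the ligand of Cxcr6, was at 694 and 700 CPM against 138 to 196. Among 9 cytokine genes, Il12b, Il15, Il15ra and Il6 were higher and Il18 lower. Il12b, the p40 chain shared by IL-12 and IL-23, was at 401 and 622 CPM against at most 18.5 CPM, and Il15ra, which presents IL-15 to T and NK cells, at 194 and 180 CPM against at most 18.0. Il1b showed no such contrast, with 1260 and 1269 CPM in members and 1102 to 2047 in the gates. Ccl19 and the Langerhans cell gene Cd207 were listed at 0 in members of both libraries, and Ido1 had 6 and 3 UMIs.

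Stimulatory and inhibitory ligands were both present. Of 10 costimulatory genes, Cd40, Tnfsf4 and Slamf1 were at least 2-fold higher than in both gates and Cd48 was lower. The shares over all genes were 5.17% higher and 3.48% lower. Tnfsf4, the ligand of OX40, was at 203 and 85.3 CPM in members and at 2.05 to 8.29 CPM in the gates. Of 13 checkpoint and regulatory genes, 6 were higher and none lower, namely Cd274 (PD-L1, 522 and 670 CPM against 170 to 178), Pdcd1lg2 (PD-L2, 194 and 245 against 25.2 to 44.2), Cd200 (342 and 362 against 5.40 to 38.5), Socs2, the retinoic acid enzyme Aldh1a2 and Fas. Cd80 and Cd86, the ligands of Cd28, were higher in members by less than 2-fold in at least 1 comparison, at 447 and 402 CPM and at 566 and 495 CPM.

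The NF-kB pathways drive dendritic cell maturation. Beside 5.17% higher and 3.48% lower over all genes, 7 of 18 genes listed for them were at least 2-fold higher throughout and none lower. They were Relb and Nfkb2, the transcription factors of the noncanonical branch, its kinase Map3k14, the signaling and survival genes Traf1 and Birc2, and the Bcl2 relatives Bcl2a1b and Bcl2a1d, near-identical copies whose reads may be split uncertainly. Relb was at 334 and 347 CPM in members and at 29.7 to 63.3 CPM in the gates. Rel, Nfkbia and Mcl1 did not pass 2-fold throughout.

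Parts of the antigen-presenting machinery were lower. Of 13 class II genes, none was at least 2-fold higher and 3 were lower, beside 5.17% and 3.48% of all genes. The 3 were H2-DMa and H2-DMb1, which load peptide, and Marchf1, a ubiquitin ligase that removes class II from the surface. H2-DMb1 was at 109 and 130 CPM in members and at 419 to 629 CPM in the gates. The class II chain gene H2-Aa was at 7353 and 8821 CPM against 9406 to 10792. Of 15 class I genes, Psme2, H2-M2 and H2-Q7 were higher. The endocytic receptor Ly75 (DEC-205) was at 440 and 416 CPM against at most 59.9, and the adaptor Myd88 was lower. Lineage genes were among the lowest in members. The transcription factor Bcl11a was at 16.6 and 13.8 CPM against 114 to 148, and Cd209e had 4 UMIs and 0 UMIs. Siglech, a receptor of plasmacytoid cells and their relatives, was at 3.19 and 5.40 against 48.2 to 580. The 4 plasmacytoid markers, Siglech among them, summed to 1785 and 1171 CPM in the cDC1 gate and to 625 and 675 CPM in the cDC2 gate. Whether plasmacytoid cells entered these gates was not tested. Id2, a factor of the dendritic lineage, was higher at 1733 and 1767 CPM against 192 to 574, and the receptor Flt3, at 292 and 286 CPM, was close to the cDC1 gate. Fabp5, a fatty acid carrier, was at 843 and 879 CPM against 59.5 to 130.

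**Figure D2:**
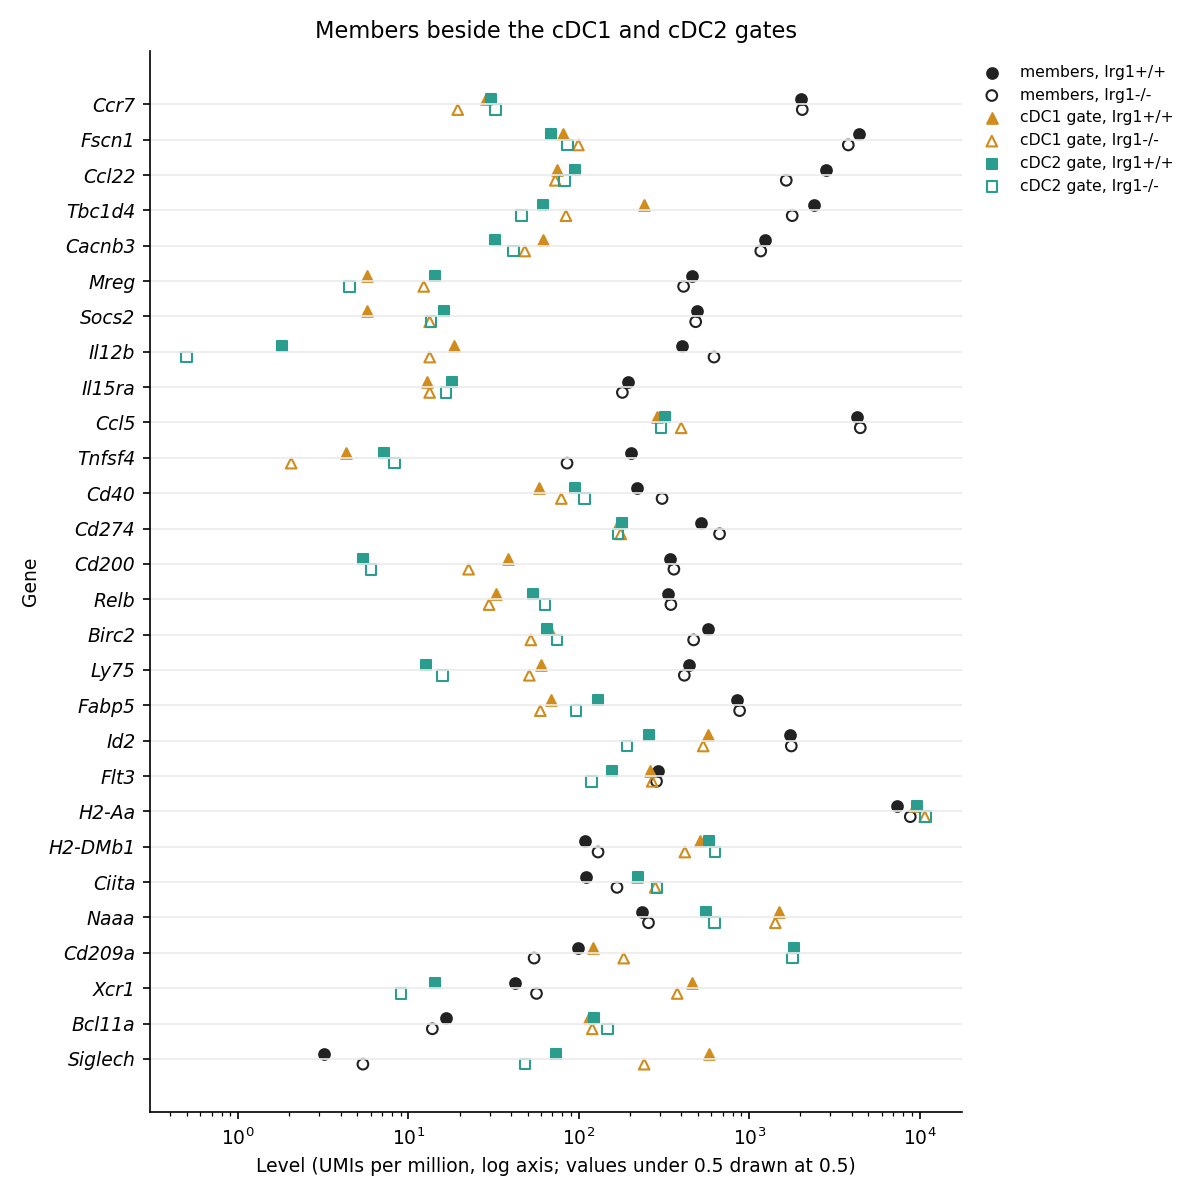
Level (CPM, log axis) of 28 genes in members (circles), the cDC1 gate (triangles) and the cDC2 gate (squares), filled for the Irg1+/+ library and open for the library labelled Irg1-/-. Genes of migration, cytokines and checkpoints lie to the right of both gates, and Flt3 lies close to the cDC1 gate. H2-Aa, by a small distance, and H2-DMb1, Naaa, Bcl11a and Siglech lie to the left.

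Genes of both lineages were found at low level in members. With any UMI of 8 cDC1 genes or of 8 cDC2 genes as the mark, 13.1% of Irg1+/+ members (9.57 to 17.3) carried cDC1 genes only, as did 8.75% (5.80 to 12.6) of those labelled Irg1-/-. Members with cDC2 genes only were 27.2% (22.3 to 32.4) and 33.3% (28.0 to 39.0), those with both 38.0% and 42.4%, and those with neither 21.7% and 15.5%. The split followed depth, as members with both had medians of 6426 and 6999 UMIs and those with neither 2092 and 2495. After thinning to 2000 UMIs per cell, which left out 47 and 34 members, both lists were found in 15.4% and 15.6%, and cDC1 genes only in 14.7% and 16.7%, so the order of the libraries in the last share turned. The summed level of the 8 cDC1 genes was 416 and 494 CPM in members and 206 and 194 CPM in core members, beside 436 and 389 CPM in the T cell gate, and that of the 8 cDC2 genes was 363 and 353 CPM in core members beside 537 and 578. Origin genes in core members were thus no higher than in the T cell gate, and the lineage of core members was not read from them.

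The UMIs of different genes were spread over the members to very different degrees. Per member, Ccr7 had a median of 8 and 9 UMIs with 1 to 43 and 1 to 73 as extremes, and the 31 and 30 members with most UMIs held 28.2% and 28.7% of all Ccr7 UMIs. For Ccl22 the median was 4 and 2 UMIs, the highest cell had 182 and 177, and the top 31 and 30 members held 54.6% and 62.5%. Il12b, Ccl17 and Tnfsf4 had a median of 0 in both libraries. The top 31 and 30 members held 86.9% and 77.9% of the Il12b UMIs and 87.2% and 90.3% of the Ccl17 UMIs. The gate asks for a Ccr7 UMI in every member and counts Fscn1 and Ccl22, so the spread of these 3 genes is partly set by the rule. For Tbc1d4, which the rule did not use, the same numbers of members held 31.6% and 34.7% of the UMIs.

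**Figure D3:**
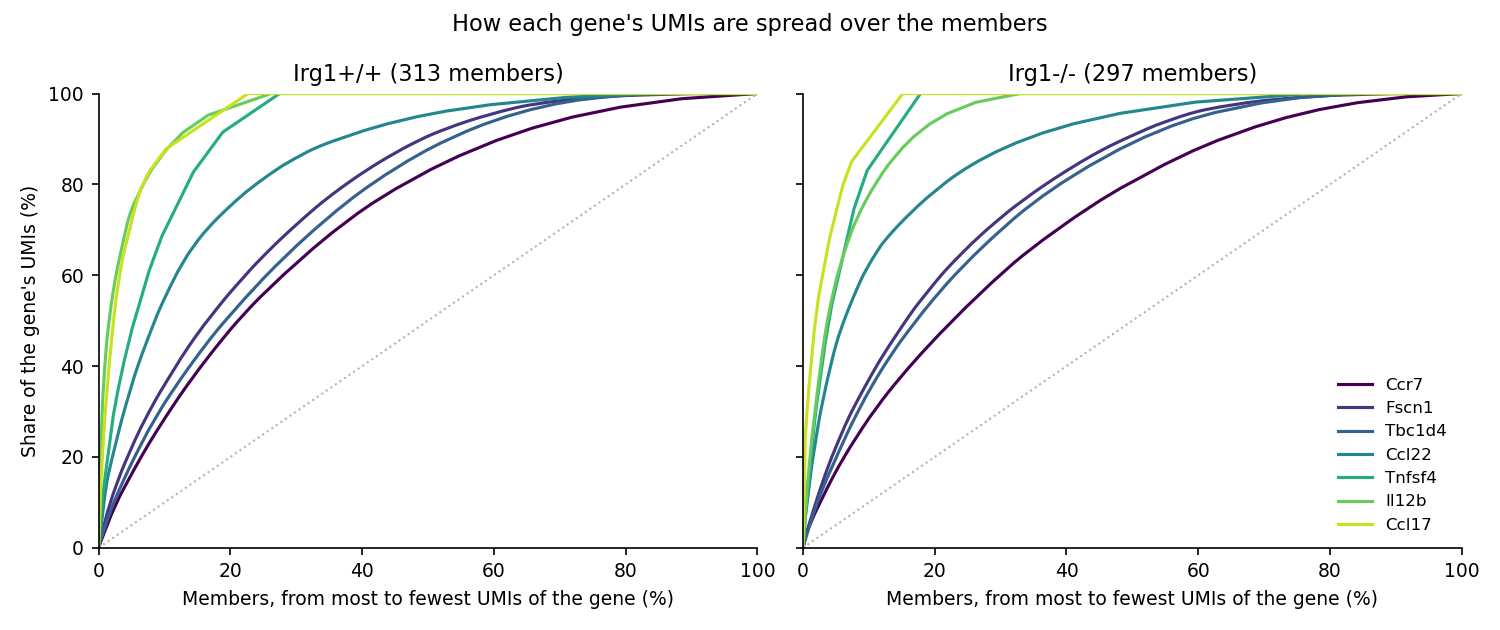
Cumulative share of a gene's UMIs (vertical axis, percent) over the members ordered from most to fewest UMIs of that gene (horizontal axis, percent of members), for 7 genes in each library, with equal spread as a dotted line. Tbc1d4 and the gate genes Ccr7 and Fscn1, whose spread the rule partly sets, rise gradually, whereas Il12b, Ccl17 and Tnfsf4 reach nearly all of their UMIs within a minority of the members.

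Members of the 2 libraries were then compared as sums over cells. Of 6590 genes with at least 50 UMIs, 261 (3.96%) were at least 1.5-fold higher in the library labelled Irg1-/- and 278 (4.22%) at least 1.5-fold lower, with a median log2 ratio of -0.03 and 3022 genes above 0. In core members 178 were higher and 311 lower of 5502, and with TMM factors 280 and 241 of 6590. Ccr7 and Socs2 were at nearly the same level in both, at 2001 and 2049 CPM and at 491 and 485 CPM. Fscn1 was at 4381 and 3816 CPM in all members and at 5586 and 5405 CPM in core members.

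The 2 ligands of Ccr4 and the ligand of OX40 were lower in the library labelled Irg1-/-. Ccl22 had 4404 and 2748 UMIs, or 2811 CPM (2728 to 2895) and 1650 CPM (1589 to 1713), a log2 ratio of -0.77 (-0.84 to -0.70). As Ccl22 is a gate gene, its level partly chose the members. With Ccl22 taken out of the gate the log2 ratio was -0.72, and in core members it was -0.64. Ccl17 had 320 and 154 UMIs, or 204 CPM (182 to 228) and 92.5 CPM (78.4 to 108), at -1.14 (-1.43 to -0.86) in members, -1.20 in core members and -0.76 with Ccl22 out of the gate. A UMI of Ccl17 was found in 71 of 313 and 45 of 297 members. Tnfsf4 had 318 and 142 UMIs, or 203 CPM (181 to 227) and 85.3 CPM (71.8 to 101), at -1.25 (-1.55 to -0.96) in members and -1.18 in core members, in 86 and 53 cells. At 2000 UMIs per cell, 19.2% (14.6 to 24.4) and 9.13% (5.93 to 13.3) of members had a UMI of Tnfsf4, beside 3.13% and 1.58% of the T cell gate.

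Ccl22 (chr8:94745590-94751699, GRCm38, plus strand) and Ccl17 (chr8:94810453-94812036, plus strand) lie close together on chromosome 8, with the chemokine gene Cx3cl1 between them. Their upstream sequences from RefSeq (GRCm38.p6), 5′ to 3′ and ending before the first annotated base of the gene, are shown because these neighbors had lower levels together. Capitals mark matches, on either strand, to GGG and TCC with any 4 bases between, a loose form of the NF-kB site, to TTC and GAA with any 4 bases between, the spacing preferred by Stat6, and to TTC and GAA with any 3 between, the spacing of other Stat factors.
Ccl22, chr8:94745434-94745589: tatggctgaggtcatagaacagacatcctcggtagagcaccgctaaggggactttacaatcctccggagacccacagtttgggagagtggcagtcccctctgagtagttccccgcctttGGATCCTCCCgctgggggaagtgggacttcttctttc
Ccl17, chr8:94810203-94810452: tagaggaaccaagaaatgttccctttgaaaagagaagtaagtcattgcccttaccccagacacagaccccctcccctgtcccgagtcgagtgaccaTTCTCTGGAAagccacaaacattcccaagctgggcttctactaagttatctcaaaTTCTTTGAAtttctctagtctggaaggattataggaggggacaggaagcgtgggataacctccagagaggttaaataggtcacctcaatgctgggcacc
The Ccl22 window held 1 NF-kB form, on the minus strand, and no Stat form. The Ccl17 window held 1 match of each Stat spacing and no NF-kB form. Over all 32851 promoters of the table, windows of 250 bases held the NF-kB form in 16.5%, the Stat6 spacing in 5.85% and the shorter spacing in 7.02%. For Ccl22 the search also covered a window of 250 bases. The 156 bases shown are those of the window before the first annotated base of the gene. A match describes letters and is not a bound site.

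The same 3 genes were lower outside the members too. In all other kept cells, log2 ratios were -0.95 for Ccl22, -0.64 for Ccl17 and -0.92 for Tnfsf4. In the T cell gate, where Ccl22 stood at 244 and 50.05 CPM, its log2 ratio was -2.28. The other kept cells include the cells left out by the Cd3 and C1q limits. The part of free RNA in the members' ratios was not tested.

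Of 10 chemokines measured between the libraries, 4 were at least 1.5-fold lower (Ccl22, Ccl17, Ccl2 and Cxcl2) and 1 was higher. Over all genes the shares were 4.22% lower and 3.96% higher. Cxcl2, a ligand for neutrophils, had a log2 ratio of -0.59 in members and -0.18 in core members. The higher one was Cxcl9, an interferon-gamma-induced ligand of Cxcr3, with 956 and 1869 UMIs, or 610 CPM (572 to 650) and 1122 CPM (1072 to 1174), at a log2 ratio of 0.88 (0.77 to 0.99) in members and 0.71 in core members. A single cell of the Irg1+/+ library held 186 of the 956 UMIs, and the ratio in other kept cells was 0.55. Ccl5 was at 4288 and 4487 CPM.

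Il12b was higher in the library labelled Irg1-/-, with 628 and 1035 UMIs. This is 401 CPM (370 to 433) and 622 CPM (584 to 661), a log2 ratio of 0.63 (0.49 to 0.78) in members and 0.84 (0.70 to 1.00) in core members. A UMI was found in 82 of 313 and 98 of 297 members, and 1 cell of the Irg1+/+ library held 137 of its 628 UMIs. Without the cell with most Il12b in each library the log2 ratio was 0.88. At 2000 UMIs per cell, 18.8% (14.3 to 24.0) and 25.5% (20.3 to 31.2) of members had a UMI, intervals that overlap, beside 0.894% and 1.13% of the T cell gate. Of the 7 cytokine genes measured, none other was past 1.5-fold in either direction, beside 3.96% higher and 4.22% lower over all genes. Still, Tgfb1, at 0.43, was at 0.86 after thinning and 0.79 with at most 2 C1q UMIs.

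Cd40, Cd274, Pdcd1lg2, Cd80, Cd86 and Cd200 differed by less than 1.5-fold over all members. Cd40 was at 220 CPM (197 to 244) and 308 CPM (282 to 336), a log2 ratio of 0.49 (0.29 to 0.69), and Cd274 at 522 CPM (487 to 559) and 670 CPM (631 to 711), at 0.36 (0.23 to 0.49) in members and 0.51 in core members. Pdcd1lg2 had 0.34 in members and 0.51 in core members. Of 13 checkpoint genes none was past 1.5-fold, though Cd274 reached 0.67 after thinning to 2000 UMIs and Havcr2 (TIM-3), at -0.38, was at -0.97 in core members and 0.19 with at most 2 C1q UMIs. Of 10 costimulatory genes Clec2d, the ligand of an inhibitory NK receptor, was higher (135 and 211 CPM) and Tnfsf4 lower. Over all genes the shares past 1.5-fold were 3.96% higher and 4.22% lower. Cd80, Cd86 and Cd200 had log2 ratios between -0.19 and 0.08. Tbc1d4 was at 2407 CPM (2331 to 2485) and 1788 CPM (1725 to 1854), at -0.43 in members, -0.31 in core members and -0.72 in other kept cells. Of the 20 migration genes, Adam23 was past 1.5-fold, at 156 and 100 CPM, and with at most 2 C1q UMIs Tbc1d4 was too, at -0.72.

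Interferon-induced genes were mostly on the higher side in the library labelled Irg1-/-. Of 22 interferon-stimulated genes measured, 7 were at least 1.5-fold higher and none lower, beside 3.96% and 4.22% of all genes. The median log2 ratio of the 22 was 0.33 in members, 0.25 in core members and 0.50 in other kept cells, against -0.03 over all genes in members. Irf7, which amplifies type I interferon, was at 65.1 CPM (53.1 to 79.0) and 145 CPM (128 to 165), and Isg15, a ubiquitin-like protein, at 199 CPM (178 to 222) and 354 CPM (326 to 384). Of 15 interferon-gamma-induced GTPases and chemokines, several of them from families of close copies, 6 were higher and none lower, with medians of 0.54, 0.39 and 0.44. Iigp1, a GTPase of the Irg family, had a log2 ratio of 0.90 (0.63 to 1.18) in members but 0.09 (-0.30 to 0.47) in core members, so its difference lay in members with low sums. Gbp2 and Irf1 had 0.34 and 0.54.

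Class II genes stood in the same direction at smaller size. Of 12 measured, 11 had a positive log2 ratio, beside 3022 of 6590 over all genes, with a median of 0.20 in members, 0.13 in core members and 0.27 in other kept cells, and Ciita, the transactivator of class II genes, alone passed 1.5-fold (110 and 168 CPM, log2 0.61). Over the alternatives Ciita ranged from 0.28 (thinned to 2000 UMIs) to 1.03 (Ccl22 out of the gate), and Marchf1, at 0.53, from 0.05 (core members) to 1.13 (thinned). H2-Aa was at 7353 and 8821 CPM and Cd74, the invariant chain, at 6532 and 7582 CPM. The class I list had 12 of 15 positive and a median of 0.06, beside -0.03 over all genes. Genes of NF-kB and survival had a median of -0.04, with Bcl3 past 1.5-fold at 68.3 and 116 CPM. Over all genes 3.96% were at least 1.5-fold higher.

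Of 15 glycolysis genes none was past 1.5-fold over all members, beside 3.96% higher and 4.22% lower over all genes. Slc2a1, a glucose transporter, was at -0.42 in members, -0.69 in core members and 0.11 by the mean of single-cell CPM, and Pgam1, a glycolytic mutase, at -0.52 in members and -0.65 after thinning. The median log2 ratio of the list was -0.13 in members, -0.32 in core members and -0.34 in other kept cells. Among 10 lipid and cholesterol genes Sqle, an enzyme of cholesterol synthesis, was lower (93.2 and 52.9 CPM), and the cholesterol exporters Abca1 and Abcg1 were higher. Immediate early and stress genes had a median of 0.23, with Junb and Dusp1 at 0.43 and 0.47 and Hspb1 lower on 40 and 15 UMIs, 25 of the 40 in 1 cell. In the list of IL-4 and TSLP responses, with 9 measured, Ccl17 and Ccl22 were lower, and Il7r and Il4ra were at -0.19 and -0.13. Of 12 cell cycle genes, Tyms and Rrm2 were higher on few UMIs (13 and 37, 36 and 99) and Ube2c lower (58 and 30). A single cell held 25 of the 99 UMIs of Rrm2, and its log2 ratio of 1.36 was -0.84 with at most 2 C1q UMIs allowed.

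**Figure D4:**
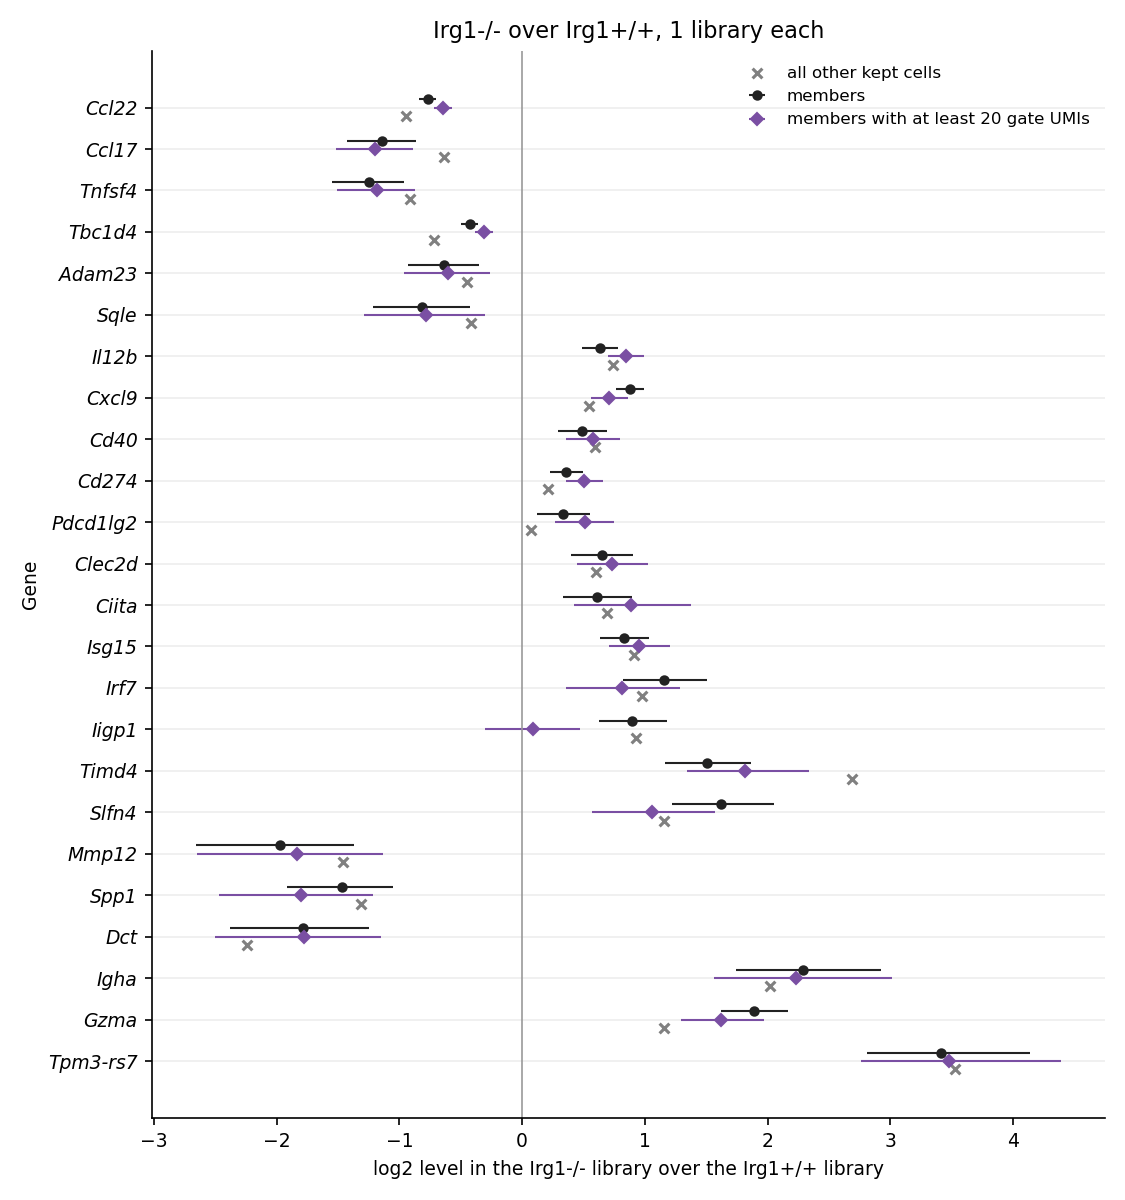
Log2 ratio of the level in the library labelled Irg1-/- over the Irg1+/+ library (horizontal axis) for 24 genes in members (circles), core members (diamonds) and all other kept cells (crosses), with 95% counting intervals for the first 2. Tnfsf4 and Ccl17 lie near -1 and Il12b and Cxcl9 between 0 and 1, and for Dct and Tpm3-rs7 the crosses lie beyond the members' values.

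Several of the genes with the largest ratios are known from other cell types. Higher in the library labelled Irg1-/- were Gm47015 (8 and 216 UMIs, log2 4.58), Tpm3-rs7 (22 and 254, 3.41), Igha, the IgA heavy chain (30 and 158, 2.29), Gzma, a granzyme of NK and T cells (145 and 571, 1.89), Slfn4 (65 and 213, 1.62), Adgrg5 (27 and 88, 1.60), Timd4, a receptor for dying cells (92 and 278 UMIs, 58.7 and 167 CPM), and Rrm2. With at most 2 C1q UMIs allowed, the log2 ratio of Timd4 was 3.77. In other kept cells the same ratio was 2.77 for Gm47015, 3.53 for Tpm3-rs7, 2.02 for Igha, 1.15 for Gzma and 2.69 for Timd4. Tpm3-rs7 is a processed copy that can share reads with its parent gene, so its counts are uncertain. Lower were Mmp12, a macrophage elastase (101 and 27 UMIs, -1.97), Dct, a melanin enzyme (118 and 36, -1.79), Lpl (272 and 98, -1.56), Spp1 (165 and 63, -1.47), Cxcl1 (154 and 60, -1.44), Gga2 (92 and 40, -1.28), Efnb2 (162 and 71, -1.27) and Gpnmb (120 and 53, -1.26). Dct, Spp1, Gpnmb and Mmp12 had -2.24, -1.31, -1.35 and -1.46 in other kept cells. For Cxcl1, 1 cell of the Irg1+/+ library held 79 of 154 UMIs, and the ratio was -0.27 in core members. For Gga2 and Efnb2, a ligand of Eph receptors, other cells had 0.01 and -0.23, while the members' levels were 58.7 and 24.0 CPM and 103 and 42.6 CPM.

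Markers of other cell types moved with some of these results. The 4 monocyte markers summed to 732 and 1349 CPM in members and 473 and 839 CPM in core members, led by Plac8 at 373 and 651 CPM in members, with Ly6c2 at 242 and 611. Of the 4, only these 2 had a log2 ratio above 0 in members, so the markers did not all move together. The 4 NK markers summed to 130 and 412 CPM, led by Gzma, and the 4 melanocyte markers to 150 and 46.8 CPM, led by Dct. The 6 macrophage markers summed to 753 and 811 CPM, within the limit the gate set on C1q, and the 5 T cell markers to 294 and 244 CPM. B cell markers summed to 58.1 and 63.1 CPM in members and to 4.32 and 2.68 CPM in core members, where Ms4a1 was at 0 in both libraries. The 4 neutrophil markers summed to 17.2 and 60.7 CPM, and the 4 markers of plasmacytoid dendritic cells to 280 and 332. The part of these transcripts in the differences between the libraries was not tested.

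Core members with and without Il12b were compared within each library. At least 2 UMIs of Il12b were found in 46 of 204 Irg1+/+ core members (22.5%, 17.0 to 28.9) and in 70 of 185 (37.8%, 30.8 to 45.2) of those labelled Irg1-/-, and no UMI in 136 and 98. The first were deeper, with medians of 7167 and 6665 UMIs against 4770 and 5086. Of 4416 genes with at least 30 UMIs over both kinds of cells in each library, 68 were at least 2-fold higher with Il12b in the Irg1+/+ library and 87 in the other, 14 of them in both, Il12b itself included. At least 2-fold lower were 127 and 125, with 13 in both. The contrast is a description, and for genes named because they passed in both, the like direction is set by that choice.

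Cd81, a tetraspanin, was at 318 CPM with Il12b and 102 CPM without in the Irg1+/+ library, and at 396 and 67.3 CPM in the library labelled Irg1-/-. Bcl2l14, a Bcl2 relative, was at 779 and 226 CPM and at 968 and 298 CPM. Ncoa7, an interferon-inducible coactivator, was at 1010 and 400 CPM and at 1455 and 291 CPM. Igfbp4, which binds insulin-like growth factors, and Dnase1l3, a secreted DNase of dendritic cells and macrophages, differed likewise, with log2 values of 1.71 and 2.62 and of 1.92 and 1.18. Irf8, the transcription factor of cDC1 that acts on the Il12b gene, did not pass 2-fold in either library and was at 1403 and 781 CPM and at 1842 and 949 CPM. Among the lower genes, Crispld2 had 4 and 54 UMIs and 1 and 44 UMIs, and Clu, Sox4 and Spib had log2 values between -2.03 and -1.20. The level of Ccl22 was close in both kinds of cells (3627 and 3404 CPM, 2346 and 2087 CPM), and Ccl17 and Tnfsf4 were lower with Il12b, at log2 values of -0.45 and -0.88 and of -0.53 and -0.77. Within cells without Il12b the libraries still differed in Tnfsf4, at 261 and 133 CPM, and in Ccl17, at 285 and 140 CPM.

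Depth differed between these cells, so core members were also thinned to 2000 UMIs, which left 44 cells with and 150 without a UMI of Il12b in the Irg1+/+ library, and 63 and 119 in the library labelled Irg1-/-. The log2 value was then 1.35 and 1.28 for Bcl2l14 (1.78 and 1.70 before), 0.79 and 2.70 for Cd81 (1.63 and 2.54), 1.42 and 1.80 for Ncoa7 (1.34 and 2.32) and 0.72 and 0.85 for Irf8 (0.85 and 0.96). Igfbp4 had 0.72 and 0.92 after thinning, against 1.71 and 2.62, and Laptm4b 0.26 and 1.23, against 1.17 and 1.66. Among the lower genes, Clu had -1.25 and -1.05 after thinning (-2.03 and -1.50 before), Sox4 -1.04 and -1.77 (-1.73 and -1.41), Spib -2.43 and -0.94 (-1.20 and -1.70) and Crispld2 -2.26 and -2.63 (-2.46 and -4.65).

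**Figure D5:**
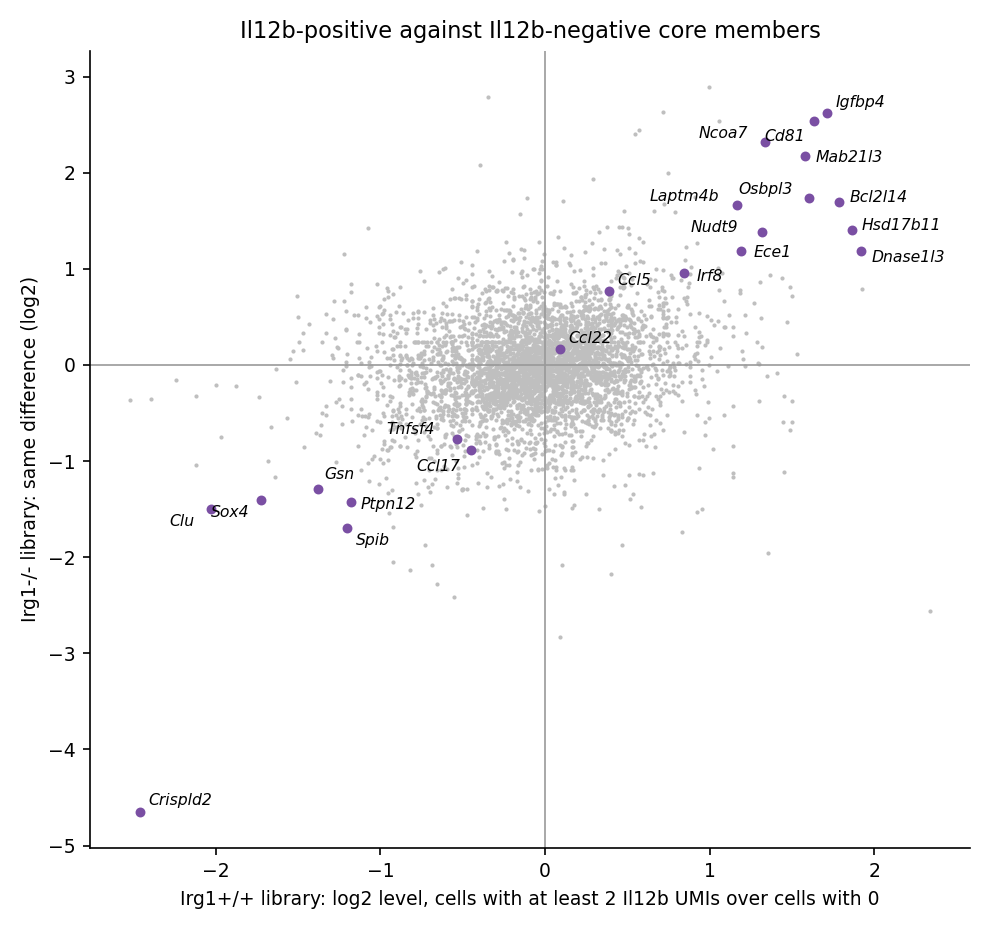
Difference in level (log2) between core members with at least 2 UMIs of Il12b and those with none, in the Irg1+/+ library (horizontal axis) and in the library labelled Irg1-/- (vertical axis), for the genes compared other than Il12b (gray), with named genes in purple. Cd81, Igfbp4, Ncoa7, Bcl2l14 and Dnase1l3 lie in the upper right and Crispld2, Clu and Spib in the lower left, while Ccl22 lies near the center.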

How the data were processed

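Single-cell 3′ libraries of Cd45+ cells from pooled B16-F10 tumors were made on the BD Rhapsody system, with 1 library of 3 mice per genotype. According to the methods, the authors filtered reads with fastp, mapped them with STAR to the mouse genome (Ensembl release 100) and counted molecules with UMI-tools; the submitters' processing notes name GRCm38. The deposited values are raw UMI counts per gene and barcode, with 31253 genes listed, 13 of them mitochondrial. Cells with at least 10% mitochondrial UMIs were dropped. Classes were gated on UMI counts in a fixed order, members first, with the same Cd3 and C1q limits for the cDC1 and cDC2 gates.

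Counts were summed per class and library and given as CPM without mitochondrial genes. Log2 ratios had 0.5 UMI added to each sum and carry exact conditional intervals. With 1 library per genotype no test was run. Ratios between libraries were counted for genes with at least 50 UMIs, at 1.5-fold, and those against dendritic cell gates at 2-fold. The ratio and interval code was tested on simulated data. No doublet caller was run, and the Cd3 and C1q limits remove some mixed barcodes. An alternative left out the members that were among the deepest 5% of all kept cells of their library. Total UMIs of 43617546 and 36432067 limit the precision through counting error. Depth also bears on which cells pass the gate, as its limits are UMI counts.

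Named genes were the 6 markers and Acod1, up to 4 by level and 2 by ratio in each list, the 8 highest and 8 lowest ratios between libraries among genes with at least 100 UMIs and a UMI in at least 10% of members of either library, and the 10 highest and 10 lowest against the gates. Genes named beyond this, and the split of core members by Il12b, were chosen after their values were seen. The members and lists were chosen with earlier results of these data known. Gene positions are from GENCODE M21, which matched 31094 gene IDs, and promoters from RefSeq. Analyses used Python 3.11.15, numpy 2.4.6, pandas 2.3.3 and scipy 1.17.1, with R 4.3.3 and edgeR 4.0.16 for TMM factors only. Some items are not reported here.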

Additional observations from a re-analysis of the deposited data

How the results depend on the processing

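No paired analysis was possible because each genotype is 1 library and no test was run. The share of members, 4.98% and 5.13%, was 5.73% and 6.11% with a sum of at least 3, 4.49% in the library labelled Irg1-/- with at least 6, 3.25% and 3.19% with at least 20, 2.63% and 2.68% with at most 2 C1q UMIs, and 7.13% and 6.69% after thinning to 2000 UMIs. Against the dendritic cell gates, 442 genes higher and 298 lower became 515 and 195 with TMM factors. They were 522 and 357 with a minimum of 20 UMIs and 305 and 191 with 200, minima that change the number of genes counted. Between libraries, 261 higher and 278 lower of 6590 genes became 610 and 667 of 8777 with a minimum of 20 UMIs, 48 and 32 of 2930 with 200, 152 and 207 of 3659 after thinning, and 358 and 493 of 6590 with the mean of single-cell CPM. With shorter lists of origin genes, members with cDC1 genes only, cDC2 genes only, both and neither were 18.5%, 17.3%, 11.2% and 53.0% in the Irg1+/+ library and 15.8%, 27.6%, 13.5% and 43.1% in the library labelled Irg1-/-. Thinning gave 15.4% with both and 38.0% with neither in the first, and 16.7% with cDC1 genes only (14.7% in the first), 15.6% with both and 30.8% with neither in the second. The cause of these shifts was not tested.

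Of 594 values of single genes under alternatives, 18 had the opposite sign, over 8 genes. In 3 of these the value as reported was past 1.5-fold. Cd209a, at a log2 ratio of -0.86, was at 0.17 in core members and 0.26 with Ccl22 out of the gate, and Rrm2 was at -0.84 with at most 2 C1q UMIs. Over all alternatives Il12b ranged from 0.61 to 1.07, Cxcl9 from 0.57 to 1.39, Tnfsf4 from -1.65 to -1.18, Ccl17 from -1.96 to -0.76 and Ccl22 from -0.93 to -0.64. The core limit, the gate without Ccl22 and the shorter lists were chosen after seeing the data. Depth limits genes with few UMIs most, and no interval covers differences between mice.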
